A study of Mus musculus with 6 samples.

Results

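The cytosolic ribosome is built from a small 40S subunit and a large 60S subunit, each made of ribosomal RNA and a fixed set of proteins, and it translates messenger RNA into protein. Ribosomal protein genes are among the most strongly transcribed genes of a cell. Their messenger RNAs begin with a short run of pyrimidines, the 5′ terminal oligopyrimidine (TOP) tract, through which mTOR and the RNA-binding protein LARP1 set how much they are translated. In macrophages, ligands of Toll-like receptors (TLRs) switch on large programmes of protein synthesis, and some ribosomal proteins also have roles away from the ribosome.

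The genes described here were chosen by symbol to cover the proteins of the cytosolic ribosome. They are the genes whose symbol begins with Rpl or Rps and a digit, together with Rpsa, Rplp0, Rplp1 and Rplp2, on probes that carry a single gene symbol. Kinases of ribosomal protein S6 (6 genes) and pseudogenes marked as such in their symbol (Rpl14-ps1 and Rps19-ps3) were left out. This gave 63 genes, measured by 218 probes, of 19935 genes in all. They fall into 21 genes of the 40S subunit, 30 genes of the 60S subunit, the 3 stalk genes and 9 paralogues or partners. The last class includes Rps19bp1, a partner protein, and Rps4l, a transcribed pseudogene in RefSeq. Counts of the 63 genes, also where they are called ribosomal protein genes, include this class. A further 20 ribosomal protein symbols, Rpl3, Rpl11, Rpl13a, Rps16 and Rps24 among them, sit only on probes that carry several symbols, and they were not analysed here. Rps27a was not analysed here either.

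RNA was taken from cultured peritoneal macrophages, phagocytes of the abdominal cavity, of the inbred mouse strain C57BL/6. The first group received the TLR3 ligand poly I:C, which mimics viral double-stranded RNA, at 2 ug/mL for 24 h. The second received the TLR2 ligand PAM, a mimic of bacterial lipopeptides, at 1 ug/mL for 24 h, but the labels name the compound as PAMCSK3 for replicate 1 and PAMCSK4 for replicate 2. Both were kept as 1 group because agent and dose are given alike, and whether they received the same compound is not settled, so fits without either PAM array are given below. The third group was left untreated and is called control here; no culture time is given for it. All cells were grown in DMEM with 10% serum, and each of the 3 groups holds 2 arrays. Whether samples within a group are different mice or cultures is not stated in the labels. The p-values therefore speak only to the spread among the arrays at hand, which could be technical.

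Values are on a log scale taken as log2, with each probe's median over the 6 arrays subtracted, so a value tells how an array stands relative to the others and not how abundant a transcript is. Differences are given as log2 value ± SE from limma with n = 2 arrays per group, and called where the Benjamini-Hochberg adjusted p over all 19935 genes was under 0.05. The median SE of a difference was 0.07 for these genes, and the number of arrays limits this precision. Whether a probe had at least 8 on the log2 scale on every array before centring was estimated from the decimal steps of the deposited values. By this estimate it held for 204 of the 218 ribosomal protein probes (93.6%). It held for 31.7% of all single-symbol probes and for 2.71% of 1035 olfactory receptor probes. By the same measure all 8 macrophage markers were bright on every array, whereas no marker of B cells, T and NK cells, neutrophils, mast cells, or erythrocytes and platelets was. Of the 6 mesothelial or fibroblast markers 3 were bright. The estimate is not exact, since a dimmer probe can pass by accident and a bright probe with a value very close to 0 may be missed. Such probes of Rpl28, Rps18, Rps2 and Rps6 did not pass, while other probes of these genes did. The neutrophil markers S100a9, Ngp and Elane also have values very close to 0, so their level is unclear.

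The start sites of 5 members whose changes are described below are shown for the bases that surround them. The sequences come from RefSeq on build GRCm38.p6, plus strand, and run from 45 bases before the annotated start to 25 bases from it. Capitals mark either a C with at least 4 pyrimidines after it that begins within 10 bases of the start, the letter pattern of a TOP tract, or the motif CCGGAAG, the core of sites bound by ETS family factors. Rpl10a and Rps21 each have a pair of annotated starts, and the second window of each holds neither pattern in the bases shown.
Rpl10a (chr17:28328426-28328495): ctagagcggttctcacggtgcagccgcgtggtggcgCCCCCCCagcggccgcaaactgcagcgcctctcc
Rpl10a, second annotated start (chr17:28328520-28328589): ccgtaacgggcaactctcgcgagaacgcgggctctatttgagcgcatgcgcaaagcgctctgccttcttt
Rps21 (chr2:180257334-180257403): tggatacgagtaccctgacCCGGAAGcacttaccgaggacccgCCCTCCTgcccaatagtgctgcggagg
Rps21, second annotated start (chr2:180257404-180257473): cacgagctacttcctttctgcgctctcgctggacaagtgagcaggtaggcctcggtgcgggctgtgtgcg
Rpl36a (chrX:134585609-134585678): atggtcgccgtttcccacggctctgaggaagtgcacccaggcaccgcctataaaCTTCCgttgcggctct
Rpl24 (chr16:55966230-55966299): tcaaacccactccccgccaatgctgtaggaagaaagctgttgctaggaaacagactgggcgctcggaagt
Rpl14 (chr9:120571472-120571541): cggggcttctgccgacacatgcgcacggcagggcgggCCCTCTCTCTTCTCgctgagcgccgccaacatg

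RefSeq windows from 250 bases before to 50 bases after the start were at hand for 51 of the 63 members. The C with at least 4 pyrimidines near the start was found in 29 of these 51 (56.9%) and in 34.4% of 27025 genes with a window. CCGGAAG, searched on both strands, was found in 19 members (37.3%) and in 9.9% of all genes. AGATGGC, part of the motif of the factor YY1, was found on either strand in 6 members (11.8%) and in 7.3% of all genes. With poly I:C, 14 of the 29 members with the pyrimidine run were called lower, and so were 14 of the 22 without it. The median log2 difference between poly I:C and control was -0.20 with the run and -0.31 without it. A member with several annotated starts was counted where any of its windows held the pattern. A match here is a match of letters in an annotated window, and the start used in these cells was not measured.

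How these genes responded to the TLR3 ligand was read from the poly I:C arrays against the control arrays. Most transcripts of the ribosomal subunits were lower in poly I:C macrophages, by modest amounts. Of the 63 genes, 34 fell, 3 rose and 26 did not pass the test. Over all genes tested, 18.2% were called lower and 12.1% higher. The median difference of the 63 genes was -0.20, against 0.01 for all genes. Of the 63, 54 lay below 0, as did 9550 of all 19935 genes. The changes were small: 6 genes fell by at least 1.5-fold and none rose by as much. Of all 19935 genes, 1242 were called lower and 1019 higher by at least 1.5-fold. Among genes at 8 or above on every array, 30 of 51 ribosomal protein genes and 1992 of 6007 genes in all were called lower. The arrays measure RNA relative to other RNA of the sample, so fewer cells of a type and less RNA per cell cannot be told apart.

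Genes of the 40S subunit gave 14 decreases and 1 increase among 21, with a median log2 difference of -0.37. The largest decrease was that of Rps21, which encodes a small 40S protein. Its values were -0.24 and -0.45 on the poly I:C arrays and 0.41 and 0.53 on the control arrays. Both poly I:C arrays lay below both control arrays, and the difference was -0.82 ± 0.09, or 1.76-fold lower (adjusted p = 0.000107). Rpsa, a 40S protein that is also known as a laminin receptor, had -0.43 and -0.55 on poly I:C arrays, against 0.23 and 0.21 on control arrays, a difference of -0.71 ± 0.07 (adjusted p = 5.08e-05). Rps29 fell by 0.67 ± 0.09 and Rps28 by 0.66 ± 0.07, both small 40S proteins. Rps12, a protein of the 40S beak, fell as well (-0.53 ± 0.08), as did Rps19, the gene most often mutated in human Diamond-Blackfan anaemia (-0.46 ± 0.07). Rps15, a protein of the 40S head, fell by 0.43 ± 0.07.

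Other 40S genes with decreases that passed were Rps13, Rps9, Rps4x, Rps25, Rps3a1, Rps14 and Rps7, between -0.41 and -0.24. Rps7 and Rps14 lost their call without control replicate 2 (adjusted p = 0.0589 and 0.061), poly I:C replicate 1 (0.0672 and 0.0557) or poly I:C replicate 2 (0.0859 and 0.078). Rps3a1 lost it without control replicate 1 (0.0985) or poly I:C replicate 1 (0.153), and Rps25 without poly I:C replicate 1 (0.0766). Not every 40S gene was called. Rps6, the protein phosphorylated by S6 kinases downstream of mTOR, differed by -0.04 ± 0.07 (adjusted p = 0.761). Rps3, which lines the messenger RNA entry channel, differed by -0.14 ± 0.06 (adjusted p = 0.136). Rps2, Rps10, Rps15a and Rps18 lay between -0.17 and -0.12 and did not pass.

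The 60S genes gave 18 decreases and 1 increase among 30, with a median log2 difference of -0.20. Rpl10a, the protein of the L1 stalk past which used transfer RNA leaves, had the largest decrease of all 63 genes. It had -0.53 and -0.63 on the poly I:C arrays and 0.40 and 0.43 on the control arrays. The groups did not overlap, and the arrays within each lay close together. The difference was -0.99 ± 0.07, or 1.99-fold lower (adjusted p = 4.94e-06). Rpl36a, a 60S protein near the exit site for transfer RNA, had -0.45 and -0.58 on poly I:C arrays and 0.18 and 0.23 on control arrays, a difference of -0.72 ± 0.07 (adjusted p = 6.5e-05). Rpl13 fell by 0.55 ± 0.07, Rpl22 by 0.54 ± 0.07 and Rpl23a, which lies at the exit of the nascent chain tunnel, by 0.53 ± 0.07. In mice Rpl22 is needed for the development of αβ T cells. The other 60S decreases that passed, those of Rpl37a, Rpl14, Rpl23, Rpl26, Rpl36, Rpl28, Rpl4, Rpl6, Rpl30, Rpl27a and Rpl10, lay between -0.46 and -0.20. Of these, Rpl10, Rpl27a and Rpl30 lost their call in each of the 6 fits that left out an array (adjusted p between 0.055 and 0.204), and Rpl26 lost it without poly I:C replicate 2 (0.088).

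Rpl12, a protein of the stalk base, fell by 0.53 ± 0.16, with a larger SE than the other members, and its arrays spread widely. Its values were -0.37 and -0.18 with poly I:C and 0.03 and 0.49 in control. Its call was lost without control replicate 2 (adjusted p = 0.145), without poly I:C replicate 1 (0.196) and without poly I:C replicate 2 (0.0771). Rpl5, which binds 5S ribosomal RNA and, when free, the p53 regulator Mdm2, differed by -0.20 ± 0.07 (adjusted p = 0.0485). That call was lost in each of the 6 fits that left out an array, with adjusted p between 0.0719 and 0.235. Rpl7, Rpl7a, Rpl8, Rpl9, Rpl19, Rpl21, Rpl27, Rpl29, Rpl34, Rpl38 and Rpl41 lay between -0.20 and -0.01 and did not pass.

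The stalk recruits the elongation factors to the ribosome. Rplp1 fell by 0.37 ± 0.06 (adjusted p = 0.00158) and Rplp2 by 0.30 ± 0.06 (adjusted p = 0.006). Rplp0, which anchors the other stalk proteins, differed by -0.19 ± 0.07 and did not pass (adjusted p = 0.0627).

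**Figure D1:**
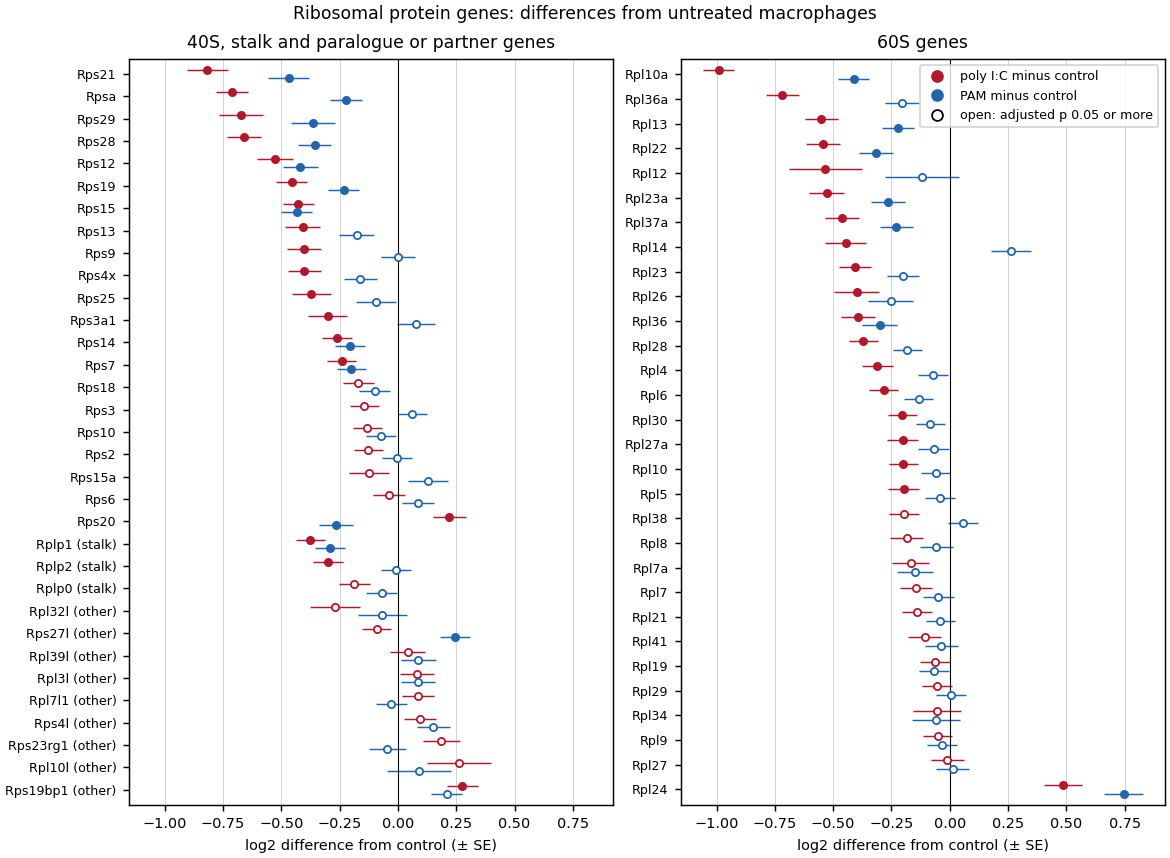
Log2 differences from control (horizontal axis, ± SE, n = 2 arrays per group) for the 63 genes, poly I:C in red and PAM in blue, with filled points for adjusted p under 0.05. The 40S, stalk and other genes stand on the left and the 60S genes on the right, each ordered by the poly I:C difference. Most red points lie left of 0, blue points lie nearer to 0, and Rpl24 stands far to the right in both.

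Rpl24, a 60S protein that contacts the 40S subunit, moved the other way. It had -0.07 and 0.07 on poly I:C arrays and -0.52 and -0.45 on control arrays, which do not overlap. The difference was 0.49 ± 0.08, or 1.40-fold higher (adjusted p = 0.00163), and it was called in every fit that left out 1 array. Its 3 probes gave 0.49, 0.49 and 0.48.

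Rps20, a protein of the 40S head, had 0.19 and 0.25 on poly I:C arrays and -0.03 and 0.03 on control arrays. The poly I:C arrays were the higher ones, by 0.22 ± 0.07 (adjusted p = 0.0467). This call was lost in all 6 fits that left out an array, with adjusted p between 0.0576 and 0.216. The third increase was that of Rps19bp1, a partner protein of Rps19 and not a ribosomal subunit, at 0.28 ± 0.07 (adjusted p = 0.0127). It was lost without poly I:C replicate 2 (adjusted p = 0.096).

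Of the 9 paralogues and partners, 1 rose (Rps19bp1), none was called lower and 8 did not pass, and their median log2 difference was 0.09. The 54 subunit genes gave 34 decreases, 2 increases and a median of -0.29. The difference between these classes was not tested, and 5 of the 9 (Rpl10l, Rpl32l, Rpl39l, Rps23rg1 and Rps4l) were not at 8 or above on every array. Rps27l, a paralogue of Rps27 that p53 induces in human cells, differed by -0.09 ± 0.06. Rpl3l, the striated muscle paralogue of Rpl3, differed by 0.08 ± 0.07, Rpl7l1 by 0.09 ± 0.07 and Rpl39l by 0.04 ± 0.07. Rpl10l, a testis paralogue of Rpl10, differed by 0.26 ± 0.14, with replicate arrays of one group up to 0.38 apart. Rps4l, a transcribed pseudogene in RefSeq, the mouse retrogene Rps23rg1 and Rpl32l differed by 0.10, 0.19 and -0.27 and did not pass.

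The poly I:C decreases held up when arrays were left out. In every one of the 6 fits without an array, 24 of the 34 were called lower. Across those fits the number called lower lay between 25 and 30, and the median over the 63 genes between -0.23 and -0.20.

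The response to the TLR2 ligand was read from the PAM arrays against the same control arrays. Because the control arrays are shared with the poly I:C comparison, the results of both are given side by side and no likeness between them is measured. With PAM 17 genes fell, 2 rose and 44 did not pass, whereas 14.0% of all genes were called lower and 11.0% higher. Of the genes at 8 or above on every array, 16 of 51 ribosomal protein genes (31.4%) were called lower. The share was 25.3% (1519 of 6007) for all genes at that level. The median log2 difference of the 63 genes was -0.07, against 0.00 for all genes. Of the 63, 47 lay below 0, as did 10051 of all 19935 genes. No member fell by as much as 1.5-fold, whereas 950 of all 19935 genes were called lower by at least that much. Decreases numbered 10 of 21 among 40S genes (median -0.18), 6 of 30 among 60S genes (median -0.07) and 1 of 3 among stalk genes. None of the 9 paralogues or partners fell.

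The number of PAM decreases depended on single arrays. It was 4 without PAM replicate 2, 8 without control replicate 2, 10 without PAM replicate 1, and 11 without control replicate 1 or either poly I:C array. Only Rpl10a, Rps12, Rps15 and Rps21 were called lower in the full fit and in all 6 of these. The share of members called lower with PAM stood nearer to the share over all genes than it did with poly I:C.

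Rps21 had the largest decrease with PAM. Its PAM arrays read 0.06 and -0.06, against 0.41 and 0.53 on the control arrays, a difference of -0.47 ± 0.09 (adjusted p = 0.00406). Rps15 read -0.01 and -0.07 with PAM and 0.36 and 0.43 in control, a difference of -0.43 ± 0.07 (adjusted p = 0.00119). Rps12 fell by 0.42 ± 0.08 and Rpl10a by 0.41 ± 0.07, or 1.33-fold (adjusted p = 0.00164). In each of these 4 genes both PAM arrays lay below both control arrays.

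Decreases of Rps29 (-0.36 ± 0.09), Rps28 (-0.36 ± 0.07), Rpl22 (-0.32 ± 0.07), Rpl36 (-0.30 ± 0.07), Rplp1 (-0.29 ± 0.06) and Rps20 (-0.27 ± 0.07) completed the 10 largest. All 6 of these lost their call without PAM replicate 2, with adjusted p between 0.0514 and 0.19, and Rps29, Rpl36 and Rps20 also without control replicate 2 (0.0702 to 0.0943). Rplp1 and Rps29 lost it without PAM replicate 1 as well (0.0593 and 0.0545). Rplp2 differed by -0.01 ± 0.06, Rplp0 by -0.07 ± 0.07, Rps6 by 0.09 ± 0.07, Rps3 by 0.06 ± 0.06 and Rpl5 by -0.04 ± 0.07, and none of these passed.

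Rpl24 was the gene with the largest increase. It had 0.34 and 0.18 on PAM arrays, above both control arrays at -0.52 and -0.45. The difference was 0.74 ± 0.08, or 1.68-fold higher (adjusted p = 0.000142), and its 3 probes gave 0.75, 0.76 and 0.73. The other increase was that of Rps27l, with 0.28 and 0.21 on PAM arrays, against 0.00 on both control arrays. This difference was 0.24 ± 0.06 (adjusted p = 0.0206), and its call was lost without control replicate 2 (0.0588), PAM replicate 1 (0.148) or PAM replicate 2 (0.0631). Rps19bp1 differed by 0.21 ± 0.07 and did not pass (adjusted p = 0.0541). The remaining paralogues lay between -0.07 for Rpl32l and 0.15 for Rps4l.

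**Figure D2:**
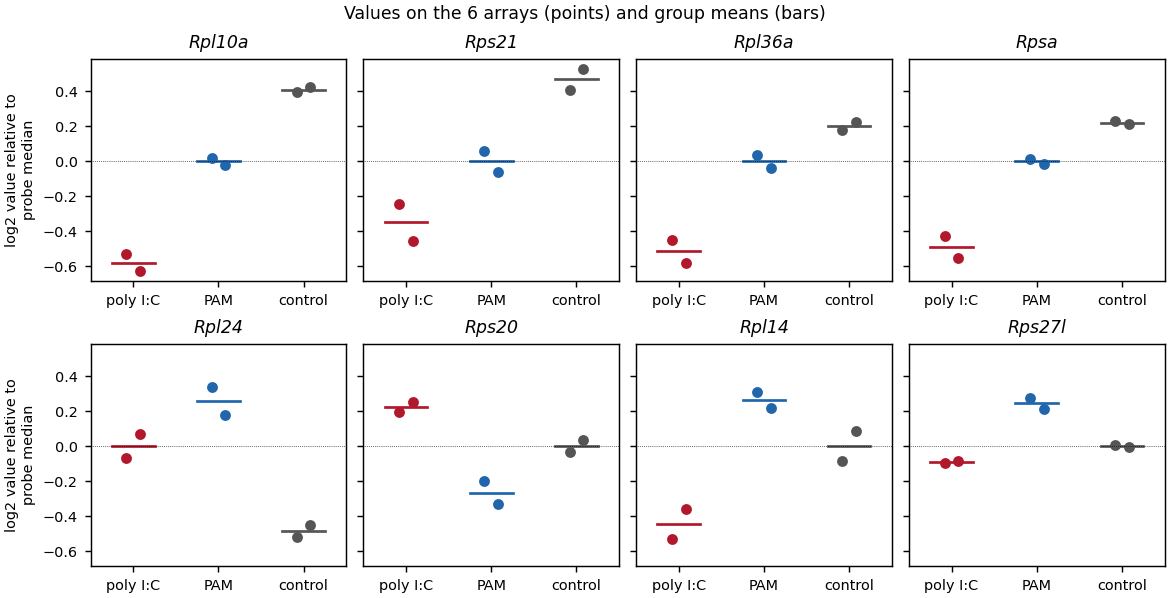
Values on each array (points) and group means (bars) on the log2 scale relative to the probe median, for 8 genes, with poly I:C, PAM and control from left to right. In Rpl10a, Rps21, Rpl36a and Rpsa the poly I:C arrays are lowest and the control arrays highest, in Rpl24 and Rps27l the PAM arrays are highest, and in Rps20 the PAM arrays are lowest.

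Poly I:C and PAM were then compared directly, which tests whether the ligands differed, at their own doses of 2 and 1 ug/mL. The poly I:C arrays were lower for 23 genes and higher for 1, and 39 did not pass. Over all genes tested, 15.8% were called lower and 12.9% higher. Of the genes at 8 or above on every array, 21 of 51 ribosomal protein genes (41.2%) were called lower. The share was 29.3% (1762 of 6007) for all genes at that level. The median log2 difference was -0.14, against 0.01 for all genes. Of the 63, 55 lay below 0, as did 9398 of all 19935 genes. The 40S genes gave 11 decreases and 1 increase among 21 (median -0.22), the 60S genes 10 decreases among 30 (median -0.15), the stalk genes 1 of 3 and the paralogues or partners 1 of 9. The number of decreases was 9 without either poly I:C array or without PAM replicate 1, and 14 without PAM replicate 2. Rpl10a, Rpl14, Rpl36a, Rps27l, Rps9 and Rpsa were called lower, and Rps20 higher, in the full fit and in all 6 fits without an array.

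Rpl14, a 60S protein, had the largest difference between the ligands. It had -0.53 and -0.36 on poly I:C arrays and 0.31 and 0.21 on PAM arrays, with control arrays between them at -0.08 and 0.08. The difference between poly I:C and PAM was -0.71 ± 0.09, or 1.63-fold lower (adjusted p = 0.000241). Against control it was -0.45 ± 0.09 with poly I:C (adjusted p = 0.00382) and 0.26 ± 0.09 with PAM, which did not pass (adjusted p = 0.0601).

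Rpl10a was next, with a difference of -0.58 ± 0.07 (adjusted p = 0.000154). Its PAM arrays, 0.02 and -0.02, lay between poly I:C and control without touching either. Rpl36a followed at -0.51 ± 0.07 and Rpsa at -0.49 ± 0.07. Rps9 differed by -0.40 ± 0.07, Rps3a1 by -0.38 ± 0.08 and Rps27l by -0.34 ± 0.06. Rps21 differed by -0.35 ± 0.09, and its call was lost without poly I:C replicate 2 (adjusted p = 0.136) and without PAM replicate 1 (0.119). The 10 largest were completed by Rpl13 (-0.33 ± 0.07) and Rps29 (-0.31 ± 0.09). Without each poly I:C or PAM array in turn Rps29 was lost, with adjusted p between 0.0801 and 0.2, and Rpl13 was lost without poly I:C replicate 2 (0.0547) or PAM replicate 1 (0.0531). Rps3a1 was lost without poly I:C replicate 1 (0.0716) or PAM replicate 2 (0.0615).

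Rps20 ran against the other genes. It had 0.19 and 0.25 on poly I:C arrays and -0.20 and -0.33 on PAM arrays, with control at -0.03 and 0.03. The difference between the ligands was 0.49 ± 0.07, or 1.40-fold higher with poly I:C (adjusted p = 0.000763). It rests on 1 probe. Rpl24 differed by -0.26 ± 0.08 between the ligands (adjusted p = 0.043), and this call was lost without poly I:C replicate 1 (0.259), poly I:C replicate 2 (0.0543) or PAM replicate 1 (0.281).

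By the 3 comparisons together, 10 genes were lower with both ligands and also lower in the direct comparison: Rpl10a, Rpl13, Rpl22, Rpl23a, Rpl37a, Rps19, Rps21, Rps28, Rps29 and Rpsa. Lower with both ligands, with no call between them, were Rpl36, Rplp1, Rps12, Rps14, Rps15 and Rps7. Rps15 read nearly alike with both ligands, and the difference between them was 0.01 ± 0.07. In 9 genes, Rpl14, Rpl36a, Rpl4, Rplp2, Rps13, Rps25, Rps3a1, Rps4x and Rps9, the poly I:C arrays were called lower than control and lower than PAM, with no call for PAM against control. A further 9 genes were called lower only in the comparison of poly I:C with control, so a difference between the ligands was not shown for them. No comparison gave a call for 23 genes. The same groupings were not counted over all genes, and the comparisons share arrays. The counts therefore do not tell whether such groupings are particular to these genes. These groupings rest on calls that often ended when 1 array was left out. Of the first 10 genes, Rpl10a alone was called in every fit of all 3 comparisons, and without PAM replicate 2 only 4 members were called lower with PAM. Of the genes lower with both ligands and not called between them, Rps12 and Rps15 were called against control in every fit. Of the 9 genes lower than both control and PAM with poly I:C, Rpl14, Rpl36a and Rps9 were called so in every fit.

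Medians over the 63 genes on single arrays were -0.12 on both poly I:C arrays, 0.03 and -0.01 on the PAM arrays, and 0.06 and 0.09 on the control arrays. The poly I:C arrays lay below and the control arrays above the PAM arrays. Over all genes the array medians lay between -0.01 and 0.01. Below 0 were 57 and 53 of the 63 genes on the poly I:C arrays, 14 and 39 on the PAM arrays, and 13 and 12 on the control arrays. The count on PAM arrays turns on values close to 0, since PAM was often the middle group and values are centred on the median of all arrays. Replicate arrays differed by a median of 0.06 with poly I:C, 0.06 with PAM and 0.05 in control.

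Several probes measured 39 of the genes and 1 probe measured 24, with at most 13 probes, for Rpl23a and Rps12. Probes of a gene gave nearly the same difference: their range over the 39 genes had a median of 0.05 for poly I:C against control, 0.06 for PAM against control and 0.04 between the ligands. The widest ranges were 0.21 for Rpl23 with poly I:C and 0.21 for Rps15 with PAM. Probes of these genes can share sequence with pseudogenes and with each other, so those of a gene are not independent. Of genes with 1 probe, 10 of 24 fell with poly I:C and 4 with PAM. Of genes with several, 24 of 39 fell with poly I:C and 13 with PAM. Every paralogue or partner except Rps4l has 1 probe, and none of that class fell with either ligand. These counts therefore mix the number of probes with the class of gene.

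**Figure D3:**
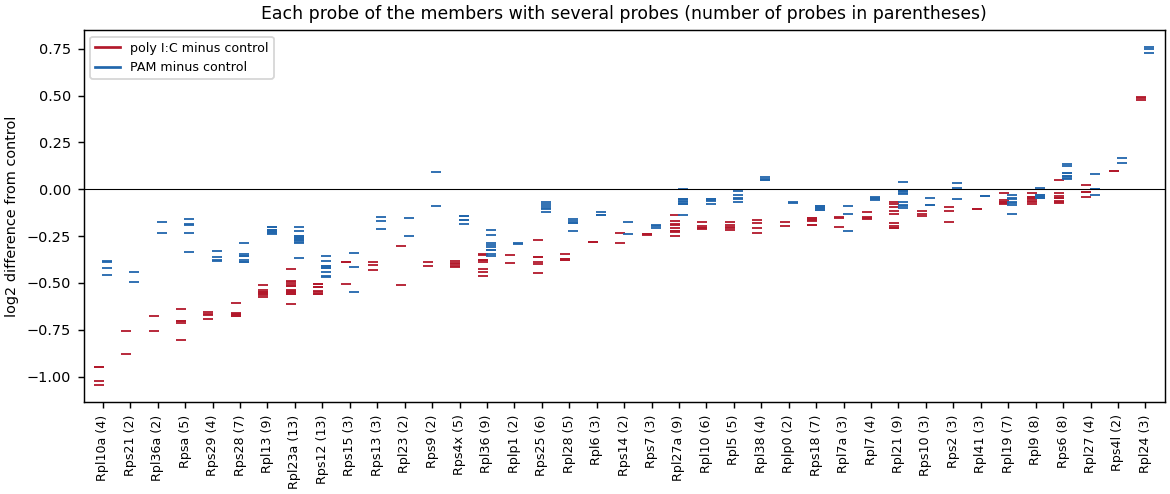
Log2 difference from control (vertical axis) of every probe of the 39 genes with several probes, poly I:C in red and PAM in blue, with the number of probes in parentheses. Marks of a gene lie close together, red marks run from near -1.0 for Rpl10a up to 0.49 for Rpl24, and all 3 probes of Rpl24 lie above 0 with both ligands.

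The factors that assemble ribosomes were set beside the proteins they assemble, with 54 of 56 listed genes measured. Poly I:C gave 9 increases (16.7%) and 12 decreases (22.2%) among them, at a median log2 difference of -0.10. The shares were 12.1% and 18.2% of all genes. They were 21.3% and 33.2% of genes at 8 or above on every array, as 44 of the 54 were. PAM gave 19 increases (35.2%, against 11.0% of all genes and 20.5% of genes at 8 or above) and no decrease, at a median of 0.18. In the direct comparison of poly I:C with PAM, 2 were higher (3.7%, against 12.9% and 23.7%). There 32 were lower (59.3%, against 15.8% and 29.3%), at a median of -0.25. The number higher with PAM was 9 without PAM replicate 2, 10 without control replicate 1 and 11 without PAM replicate 1, and the number lower in the direct comparison was 21 without poly I:C replicate 2. Without poly I:C replicate 1, the number that rose with poly I:C was 5.

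Eif6, which keeps 60S subunits from joining 40S subunits too early, rose with both ligands, by 0.93 ± 0.07 with poly I:C (adjusted p = 6.29e-06) and by 0.87 ± 0.07 with PAM (adjusted p = 1.18e-05). Rrs1, a 60S assembly factor, had -0.56 and -0.18 on poly I:C arrays, 0.67 and 0.93 on PAM arrays, and 0.01 and -0.01 on control arrays. Its PAM arrays stood above all others, by 0.80 ± 0.13 against control (adjusted p = 0.00148), and the difference between poly I:C and PAM was -1.17 ± 0.13 (adjusted p = 0.00011). Nop10, a protein of the particles that modify uridines of ribosomal RNA, fell by 0.81 ± 0.09 with poly I:C and differed by -0.03 ± 0.09 with PAM. Utp20, a factor of the small subunit processome, fell by 0.58 ± 0.07 with poly I:C and rose by 0.26 ± 0.07 with PAM. Rrp1b, a nucleolar factor, fell by 0.57 ± 0.08 with poly I:C, and Rrp9, a protein of the U3 particle, rose by 0.54 ± 0.08 with PAM. Sbds, which releases Eif6 from the 60S subunit, rose by 0.49 ± 0.07 with poly I:C, and so did Wdr43, by 0.44 ± 0.06.

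Genes of RNA polymerase I, which transcribes ribosomal RNA, and its factors were 14. Their shares called with PAM, 14.3% higher and 7.14% lower, stood near the 11.0% and 14.0% of all genes. With poly I:C they were 7.14% higher and 28.6% lower, against 12.1% and 18.2% of all genes. In the direct comparison of poly I:C with PAM they were 7.14% higher and 35.7% lower, against 12.9% and 15.8%. Of the 14 genes, 9 were at 8 or above on every array. Of all genes at that level, 21.3% were called higher and 33.2% lower with poly I:C. The shares there were 20.5% and 25.3% with PAM, and 23.7% and 29.3% in the direct comparison. With poly I:C 1 rose (Polr1c, 0.30 ± 0.06) and 4 fell, led by Polr1b (-0.42 ± 0.08), Taf1d (-0.35 ± 0.12) and Polr1a (-0.32 ± 0.07). The number that fell lay between 1 and 4 when arrays were left out, 1 without poly I:C replicate 2 and 2 without control replicate 2 or poly I:C replicate 1, and without the last of these none rose. With PAM 2 rose, Polr1e (0.37 ± 0.10) and Rrn3 (0.25 ± 0.07), and 1 fell, Ubtf (-0.36 ± 0.07). With any array left out 1 was called higher with PAM, and without PAM replicate 1 none was called lower. Poly I:C against PAM gave 1 higher and 5 lower, and 3 lower without poly I:C replicate 1 or PAM replicate 2.

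Other messenger RNAs known to carry a TOP tract, which encode mostly translation factors, also had decreases. Of 14 measured, poly I:C gave 7 decreases and no increase (median -0.18), and PAM gave 6 decreases and no increase (median -0.17). All genes were called lower in 18.2% with poly I:C and in 14.0% with PAM. Genes at 8 or above on every array, as 13 of the 14 were, were called lower in 33.2% and 25.3%. Between the ligands 3 of the 14 were lower with poly I:C (21.4%, against 15.8% of all genes and 29.3% at 8 or above). Without either PAM array 2 of them were called lower with PAM. Nap1l1, a histone chaperone, had -1.05 and -0.91 on poly I:C arrays, against 0.31 and 0.22 on control arrays, a difference of -1.24 ± 0.08 (adjusted p = 2.82e-06). Eef1b2, an exchange factor of elongation factor 1, fell by 0.72 ± 0.07 with poly I:C and by 0.45 ± 0.07 with PAM. Eif4b, a cofactor of the helicase eIF4A, fell by 0.57 ± 0.07 with poly I:C and by 0.55 ± 0.07 with PAM, and Tpt1 fell by 0.28 ± 0.06 with PAM. Fau, a 40S protein whose symbol lies outside the rule, differed by -0.19 ± 0.08 with poly I:C and by -0.19 ± 0.08 with PAM, and neither passed.

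Of 19 genes of the mTOR, S6 kinase and MYC group, 4 rose (21.1%) and 8 fell (42.1%) with poly I:C. The shares were 12.1% and 18.2% of all genes. They were 21.3% and 33.2% of genes at 8 or above on every array, as 11 of the 19 were. With PAM 2 rose (10.5%) and 7 fell (36.8%), against 11.0% and 14.0% of all genes and 20.5% and 25.3% at 8 or above. Poly I:C against PAM gave 6 higher (31.6%, against 12.9% of all genes and 23.7% at 8 or above). There 3 were lower (15.8%, the same as for all genes, against 29.3% at 8 or above). The number that rose with PAM was 1 without either control array or PAM replicate 1. The number that fell with poly I:C was 5 without control replicate 2 or poly I:C replicate 1 and 4 without poly I:C replicate 2. Myc, a transcription factor that activates ribosomal protein genes, had -1.10 and -0.97 on poly I:C arrays, -0.12 and 0.12 on PAM arrays, and 1.30 and 1.36 on control arrays. The 3 groups stood apart without overlap, and Myc fell by 2.37 ± 0.09 with poly I:C (adjusted p = 1.13e-07) and by 1.33 ± 0.09 with PAM (adjusted p = 5.99e-06). Mxd1, whose protein competes with MYC for the partner MAX, rose by 1.59 ± 0.10 with poly I:C and differed by -0.17 ± 0.10 with PAM. Max itself rose by 1.38 ± 0.08 with poly I:C.

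Larp1, the protein that binds TOP tracts, rose by 0.89 ± 0.07 with poly I:C (adjusted p = 1.71e-05) and by 0.45 ± 0.07 with PAM (adjusted p = 0.00148). Deptor, an inhibitor of mTOR, fell by 1.25 ± 0.09 with poly I:C and by 1.07 ± 0.09 with PAM. Rps6ka3, a kinase of S6, fell by 1.22 ± 0.07 with poly I:C and by 0.60 ± 0.07 with PAM. Tsc1, a brake on mTOR, fell by 0.29 ± 0.09 with poly I:C and by 0.76 ± 0.09 with PAM. Eif4e, the cap-binding factor, rose by 0.28 ± 0.08 with PAM and differed by 0.10 ± 0.08 with poly I:C, which did not pass. Mtor itself differed by -0.11 ± 0.06 with poly I:C and by -0.09 ± 0.06 with PAM.

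The GAIT complex, known from human monocytes, holds the ribosomal protein L13a together with EPRS, SYNCRIP and GAPDH, and the kinases DAPK1 and DAPK3 act above it. Rpl13a was not analysed here, and 4 of the 5 listed genes were measured. Over all genes, 12.1% were called higher and 18.2% lower with poly I:C, and 11.0% and 14.0% with PAM. In the direct comparison the shares were 12.9% and 15.8%. All 4 measured genes were at 8 or above on every array. Of all genes at that level, 21.3% were called higher and 33.2% lower with poly I:C. The shares there were 20.5% and 25.3% with PAM, and 23.7% and 29.3% in the direct comparison. With poly I:C Dapk3 rose (0.35 ± 0.07), while Dapk1 fell by 0.93 ± 0.07 and Syncrip by 0.65 ± 0.08. With PAM Eprs rose by 0.44 ± 0.07 and Dapk1 by 0.32 ± 0.07, and none fell. Without PAM replicate 2 only 1 of these was called higher. Between the ligands 3 were lower with poly I:C.

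**Figure D4:**
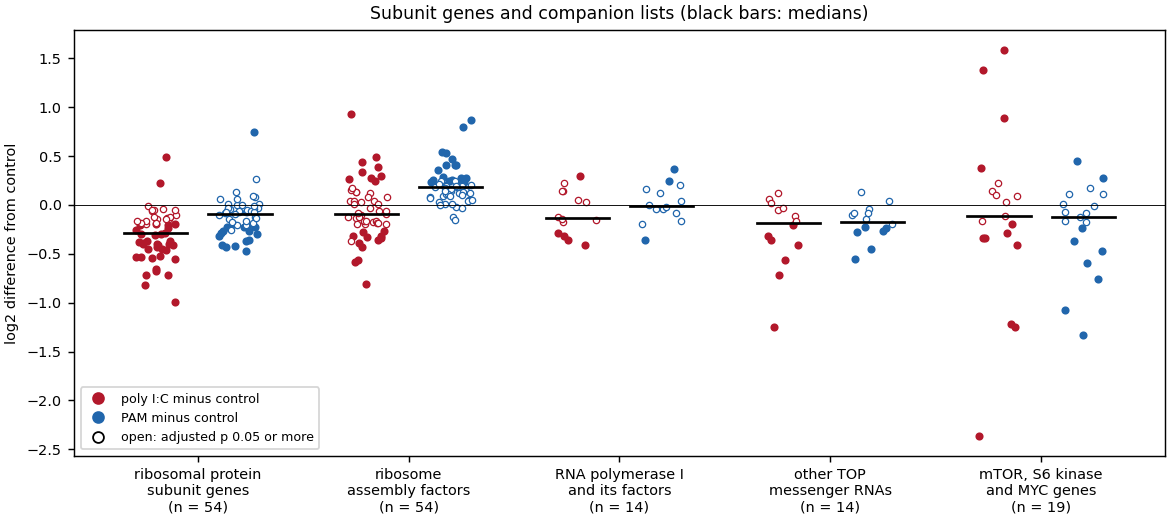
Log2 difference from control (vertical axis) of the 54 ribosomal protein subunit genes and of 4 companion lists, poly I:C in red and PAM in blue, with filled points for adjusted p under 0.05 and black bars for medians. The subunit genes lie mostly below 0 with both ligands, the assembly factors lie mostly above 0 with PAM, and the lowest red point is Myc at -2.37.

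Some markers of other cells moved with the groups, and their part in the results above was not tested. Over all genes, 12.1% were called higher and 18.2% lower with poly I:C, and 11.0% and 14.0% with PAM. None of the neutrophil, mast cell, T and NK cell or platelet markers passed with poly I:C, while 2 of 5 B cell markers were higher and 2 of 6 mesothelial or fibroblast markers lower. The mean value of the neutrophil list was -0.07 and 0.01 on poly I:C arrays, 0.35 and 0.30 on PAM arrays, and 0.03 and -0.09 on control arrays. With PAM that mean rests on S100a8 (2.04 ± 0.10) and Camp (0.64 ± 0.12), while the median difference of the list was 0.00 and 4 of its 7 genes lay below 0. The platelet gene Pf4 rose by 2.60 ± 0.06 and the fibroblast gene Dcn by 0.95 ± 0.15 with PAM. With PAM 2 of 7 neutrophil markers, 2 of 5 B cell markers, both platelet or erythroid markers and 1 of 6 mesothelial or fibroblast markers were higher, and 1 of those 6 was lower. Among 8 macrophage markers poly I:C gave 2 increases and 3 decreases, and PAM gave 3 of each.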

How the data were processed

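Biotin-labelled cRNA of 6 samples was hybridised to Affymetrix expression arrays, per the labels' protocols. The values used are the authors' deposited log2 table of 28815 probes. No source used here states the log base, the background correction or the normalization, so log2 is an assumption on which every fold rests. The deposited table is already centred on the median of each probe. Array medians lay between -0.0049 and 0.0072, and 0 columns were left out.

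The platform annotation gives 1 symbol for 21780 probes, several for 1605 and none for 5430. A gene's probes were averaged. All 63 members were found in RefSeq by Entrez identifier. limma 3.58.1 (R 4.3.3) fitted 1 mean per group over 6 arrays, with 3 residual and 5.68 prior df. Adjustment ran over 19935 genes within each comparison. An exact permutation test of 2 arrays against 2 could not reach 0.05. Values at 8 or above were read from steps of the numbers as whole multiples of 2 raised to minus 20, within a tolerance of 0.1 of a step. The script was tested on simulated data.

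The members and the companion lists were chosen with earlier results of these data known. Named were up to 10 members per direction and comparison by size among those called, the stalk genes, the paralogues, and always Rps6, Rps3 and Rpl5, and from each companion list up to 3 per direction. Genes named beyond these were chosen after their values were seen, as was the place of Rps23rg1 among the paralogues. Alternatives are given under the closing section. Figures were drawn with matplotlib 3.10.9 in Python 3.11.15.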

Additional observations from a re-analysis of the deposited data

Results flagged for a closer look

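Rps20 was the member called against control in opposite directions with the 2 ligands, with a difference between them that also passed. Rpl14, Rpl38, Rps27l, Rps3 and Rps3a1 also had opposite signs and a difference between the ligands that passed, but were not called against control with both. Rps9 passed between the ligands too, but its PAM arrays differed from control by only 0.00 ± 0.07. The poly I:C arrays of Rps20 exceeded its PAM arrays by 0.49 on the log2 scale (adjusted p = 0.000763, limma, n = 2 arrays per group). Both poly I:C arrays lay above both control arrays and both PAM arrays lay below them. The call against PAM held in all 6 fits without an array, whereas the call of poly I:C against control was lost in all 6. The call of PAM against control was lost without control replicate 2, at a difference of -0.23, and without PAM replicate 2, at -0.20. Rps20 has 1 probe.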

How the results depend on the processing

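No median of the members and no called gene changed sign under any alternative; 9 of 77 named results did, and 0 of them were called either way. With arrays left out in turn, the genes called with poly I:C against control numbered 1 to 3 higher and 25 to 30 lower (median -0.23 to -0.20). With PAM against control they numbered 1 to 2 higher and 4 to 11 lower (median -0.098 to -0.062), and in the direct comparison 1 to 2 higher and 9 to 27 lower (median -0.16 to -0.14). With Holm adjustment poly I:C gave 0 increases and 1 decrease (Rpl10a), and 0 genes were called in either direction in both other comparisons. Restricted to the 24 genes with a single probe, 10 were lower with poly I:C (median -0.16). In that set 1 was higher and 3 lower with PAM (median -0.036), and 8 lower in the direct comparison (median -0.17). All paralogues or partners except Rps4l are among these 24 genes, so class and number of probes are mixed there. By probe, of 218, poly I:C gave 5 higher and 132 lower (median -0.27), 4 higher and 70 lower with PAM (median -0.11), and 70 lower in the direct comparison. Among genes at 8 or above on all arrays the poly I:C median was -0.24, and 4 were higher with PAM. A minimum of 1.2-fold left 1 higher and 11 lower with PAM, and 14 lower in the direct comparison. With only the 4 arrays compared, 11 were lower with PAM and 2 higher in the direct comparison. Fewer genes or samples enter several of these fits, and the cause was not tested otherwise. Correlations of same-numbered deviations were -0.07 for poly I:C and control, 0.16 for PAM and control, and -0.01 for poly I:C and PAM. With 2 arrays per group they cannot settle whether replicate numbers pair the samples. With the replicate block 30 were lower with poly I:C, 14 with PAM and 21 in the direct comparison. Of 1168 alternatives for 77 named results, 1062 kept their side of the threshold, 96 lost the call and 10 gained it. The 77 include results not called in the full fit, which had no call to lose. Holm adjustment gave 40 of the 96 losses. Values without a signal level limit what can be said of dim probes.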

Other observations

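A longer pyrimidine run was searched after the data had been seen. A C followed by at least 7 pyrimidines, from 10 bases before the annotated start to the end of the window, was found in 32 of 51 members (62.7%) and in 18.9% of 27025 genes. Of the 32 members with it, 18 were called lower with poly I:C, and of the 19 without it, 10 were. With PAM 7 of the 32 and 4 of the 19 were called lower. The median log2 differences with poly I:C were -0.26 with the run and -0.20 without it.

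The widest gaps between replicate arrays of a member, on the log2 scale, were those of Rpl12, 0.34 between the PAM arrays and 0.46 between the control arrays, and of Rpl10l, 0.38 between the poly I:C arrays.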
